A study of Lepidium sativum with 107 samples.

Results

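In garden cress (Lepidium sativum) seeds, 142 of 13848 loci measured on expression arrays were higher in both regions of the endosperm than in both parts of the embryo that were dissected. They were chosen from measured values. For each locus the means at 3 h, at 7 h with intact testa and at 13 h were averaged per tissue, and a locus was kept where the lower of the micropylar and non-micropylar endosperm means exceeded the higher of the radicle and cotyledon means by at least 1 on the log2 scale, which is a doubling. What follows describes these loci over the stages and dry seed parts that the choice did not use. The seeds, labelled FR14, were sown on wet filter disks at 24 °C in continuous light and cut with a scalpel. The 4 tissues were the micropylar endosperm over the radicle tip, the non-micropylar endosperm, the radicle with the lower hypocotyl (here radicle) and the cotyledons. Micropylar endosperm and radicle were sampled at 1, 3, 5, 7, 10, 13 and 16 h after sowing. At 7 h seeds with a ruptured testa, the seed coat, were kept apart from seeds with an intact one, and at 16 h seeds with a ruptured endosperm from seeds with an intact one. For non-micropylar endosperm and cotyledons the times were 3, 7 (intact testa) and 13 h only. Dry seeds were sampled whole, as a radicle end with its micropylar endosperm, and as a cotyledon end with its non-micropylar endosperm. A sample of sown seed pooled 100 organs (50 for cotyledons), while no number is given for dry seed. Per array 100 ng of RNA was labelled, and each of 27 groups had 4 arrays except the dry cotyledon end, which had 3. No label says that replicates were separate seed batches, so p-values measure only how these samples vary, and that variation may be technical.

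The endosperm of a cress seed is a thin living layer that surrounds the embryo beneath the testa. Its micropylar part covers the radicle tip and weakens before the radicle breaks through, a process tied to gibberellin, abscisic acid and enzymes that loosen cell walls, while the rest of the layer also holds reserves that are used during germination. Endosperm of related species makes its own wall proteins and transporters in this time.

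Rows of the deposited table carry Arabidopsis locus codes with no gene names. Symbols were taken from hand-made gene lists by locus code, which held 32 of the 142 members, and the other 110 have no symbol here. Of measured loci on these lists 3.4% were members, against 1.03% of all loci. The lists were made with earlier results of these data known, so these shares are no test of enrichment. Each value describes the cress transcript that bound the probes filed under a code, and the roles given below are known from Arabidopsis. Values are log2 levels after RMA, a method that corrects background and equalises arrays, so a difference of 1 is a doubling. RMA gives no call of signal over background. A group mean below 3.59, where the lowest 25 percent of all group means lie, is called dim here, and a difference measured against a dim mean is a lower bound, written as at least.

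By the values that chose them, the members exceeded the embryo by 1.01 to 4.62 (median 1.27). The largest belonged to AT2G43590, a code without a symbol, followed by the expansin EXPA2 (4.24) and by AT3G22880 (3.87), also without a symbol. Among members with a symbol EXPA2 was followed by the xyloglucan enzyme XTH33 (2.96), the metal transporter YSL7 (2.71), the extensin EPR1 (2.43) and a further expansin, EXPA8 (2.21). The limit cut through a continuous range. Just inside it lay AT3G61070 (1.0094), AT5G42090 (1.0095) and IAA26 (1.0127), and just outside it 3 loci without a symbol at 0.9998, 0.9944 and 0.9942. A limit of 0.5 would have taken 549 loci and one of 1.5 would have taken 45.

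Averaged over the 3 stages, the 2 endosperm regions differed little for most members. The mean of the non-micropylar endosperm was the higher one for 68 members and that of the micropylar endosperm for 74, and for 106 members the means lay within 0.5 of each other. At single stages some members differed by 1 or more, with 9 higher in non-micropylar and 8 in micropylar endosperm at 3 h, 12 and 8 at 7 h, and 13 and 19 at 13 h. The member furthest towards the micropylar side was the peroxidase PRX71, with a non-micropylar minus micropylar difference of -2.19. XTH33 followed among members with a symbol at -1.76, and the channel protein NIP1;2 lay furthest the other way among them at 0.60, while over all members that side reached 1.45. The regions differed in timing for some loci. EXPA2 stood at 4.27 ± 0.16 in non-micropylar endosperm at 3 h, against 6.48 ± 1.24 in micropylar endosperm (SD, n = 4 arrays each, as for all levels below), and at 13 h the levels were 10.31 ± 0.42 and 9.81 ± 0.39. PRX71 was dim in both regions at 3 h and reached 6.75 ± 1.27 in non-micropylar endosperm at 13 h, against 10.37 ± 0.58 in micropylar endosperm. These stages chose the members, so the values carry no test. The matching shares of all loci are not given here, so none of these counts is shown to be particular to the members.

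**Figure D1:**
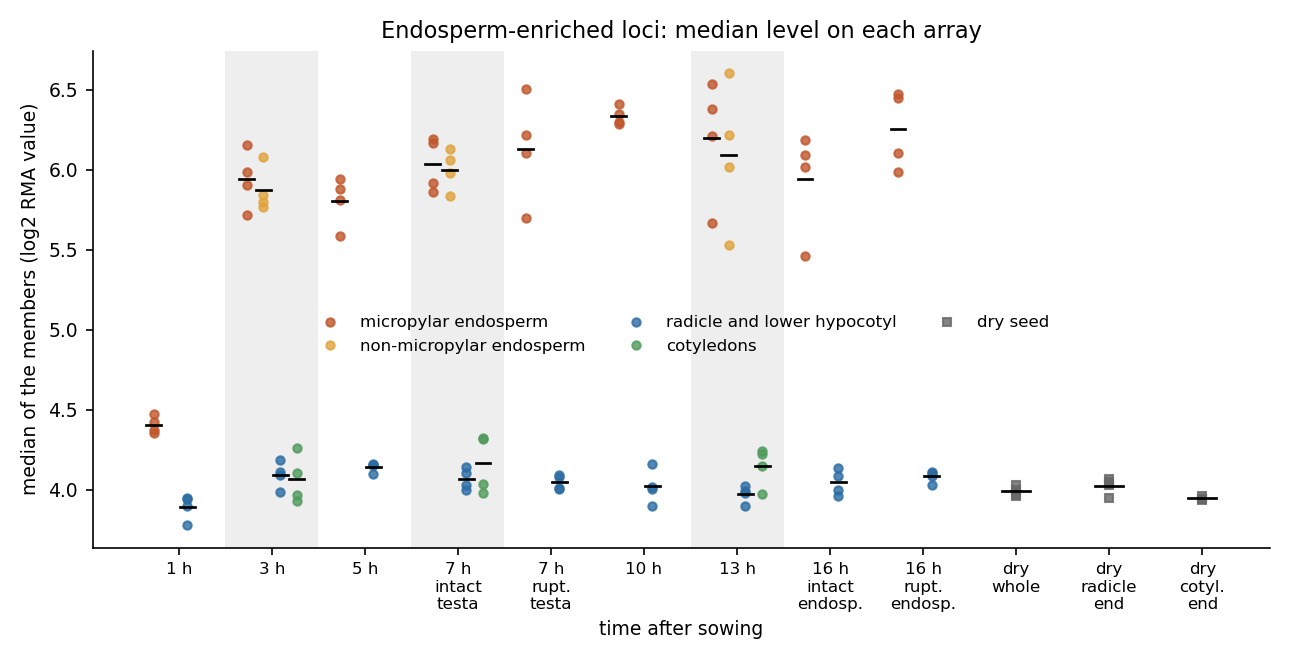
Median log2 level of the 142 members on each array, by tissue and time after sowing, with black bars for group means; grey bands mark the stages that chose the members. At 1 h the micropylar endosperm arrays lie at 4.35 to 4.47, and from 5 h on at 5.46 to 6.50 outside the bands, while radicle arrays outside the bands lie at 3.78 to 4.16 and dry seed arrays at 3.93 to 4.07.

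Marker lists for the tissues a dissected piece could hold gave a mixed check of the labels. Of 9 measured endosperm markers 3 were members, namely EPR1, EXPA2 and the desaturase AAD3. Membership follows from the values that chose the members, so it is no separate check. By those values the endosperm marker CYP707A2 was higher in cotyledons (6.98) than in non-micropylar (6.27) or micropylar endosperm (5.61). The other 6 (ALE1, NAC25, MYB118, NCED6, NCED9 and CYP707A2), several of them known from developing endosperm, differed from the radicle by -0.02 to 0.42 at 10 h and did not pass. None of 8 measured seed coat markers, 9 root markers or 8 cotyledon and shoot markers was a member. At 10 h micropylar endosperm exceeded radicle for 1 of the 8 seed coat markers and fell below it for 1. For the root markers the counts were 1 and 4, and for the cotyledon and shoot markers 0 and 3. Of all loci 12.4% were higher and 14.3% lower at that stage (limma, adjusted p under 0.05). Of the 8 seed coat markers 3 were dim in micropylar endosperm at 10 h and 5 in radicle. Testa stuck to an endosperm piece was not tested, and these counts cannot measure it. In pooled tissue, fewer cells of a type and less RNA per cell cannot be told apart. Over the whole series array medians ran from 4.04 to 4.17, no 2 arrays were identical, and the lowest correlation between arrays of a group was 0.894.

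Micropylar endosperm against radicle was tested at the 6 stages left over. Members were chosen for this difference at neighbouring stages, so the choice favours high counts here. Non-micropylar endosperm was not sampled at these stages, so its enrichment there was not tested. At 1 h 46 of the 142 members were higher in micropylar endosperm and 0 lower, when 6.07% of all 13895 loci were called higher and 6.32% lower (limma, adjusted p under 0.05). The median member difference was 0.32, against -0.04 over all loci. At an unadjusted p under 0.05, 62 members were higher (11.6% of all loci) and 1 lower (14.1%). At 5 h the count was 128 (10.6% of all loci called higher, 10.1% lower) with a median difference of 1.43. It was 132 at 7 h with ruptured testa (12% of all loci higher, 13.7% lower) and 132 at 10 h (12.4% and 14.3%), with medians of 1.63 and 1.86. At 16 h it was 118 with intact endosperm (13.4% of all loci higher, 14.6% lower) and 119 with ruptured endosperm (17.5% and 18.6%), with medians of 1.56 and 1.71. The lower count was 0 at 5, 7 and 10 h, also at an unadjusted p under 0.05, which 15.9%, 20.6% and 19.6% of all loci passed in that direction. At both 16 h stages 1 member was lower, GASA6. Medians over all loci stayed between -0.07 and -0.02 at these 5 stages. Without 1 array at a time the 6 higher counts ran from 37 to 46 at 1 h and from 111 to 134 later.

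**Figure D2:**
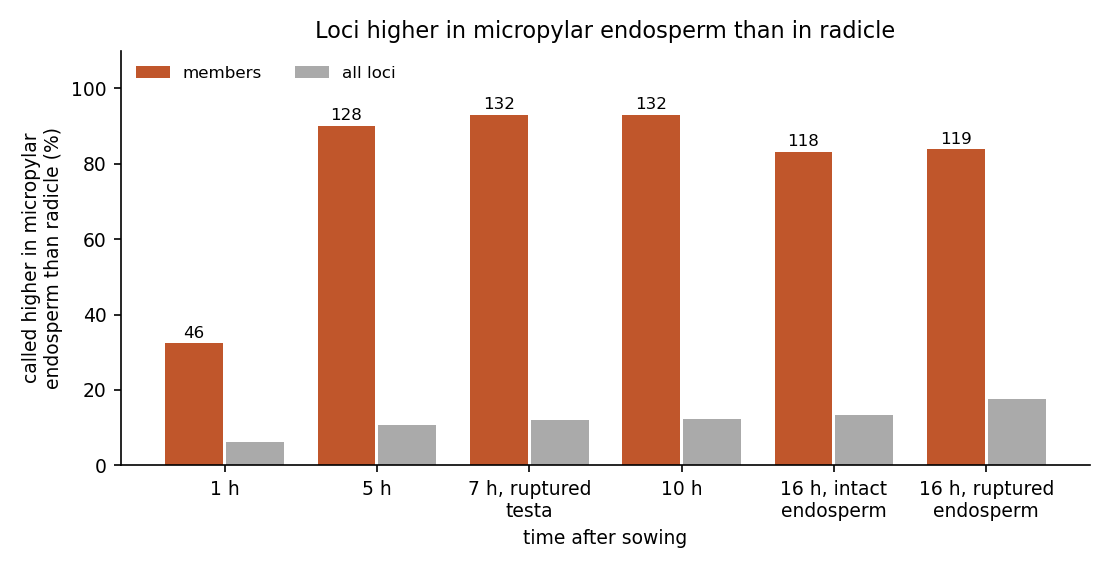
Percent of loci called higher in micropylar endosperm than in radicle at each tested stage (limma, adjusted p under 0.05), for the members and for all loci on the array; the number of members called stands over each bar. Members run from 32.4% at 1 h to 93.0% at 7 h with ruptured testa and at 10 h, and all loci from 6.07% to 17.5%.

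Counted over the 6 stages, 39 members were higher in micropylar endosperm at every stage, which held for 0.691% of all loci. Another 61 were higher at 5 stages (2.33% of all loci), 21 at 4 (3.56%), 13 at 3 (5.1%), 5 at 2 (7.23%) and 3 at 1 (12.1%). Of members with a symbol, EXPA2, YSL7, EPR1, MYB65, REF1, AAD3, ABCC1, ABCC2, LOX1 and PXA1 were higher at all 6. Of their 1 h calls, that of ABCC2 was lost when limma used the arrays of that comparison alone (adjusted p = 0.0552). That of ABCC1 was lost without replicate 4 of either tissue at 1 h (adjusted p = 0.0504 without the endosperm array and 0.0592 without the radicle array), and that of PXA1 without endosperm replicate 1 or 4 or radicle replicate 1, 3 or 4 (adjusted p from 0.0574 to 0.115). The 46 members already higher at 1 h had a median level of 5.56 in micropylar endosperm and 4.49 in radicle at that stage. The other 96 had 3.87 and 3.64. The 1 h test made this split, so the contrast at 1 h follows from it. At 5 h the medians in micropylar endosperm were 6.03 for the 46 and 5.53 for the 96.

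Several members act on the cell wall. EXPA2 (AT5G05290), an expansin, which loosens cell walls without cutting them, had 5.54, 4.67, 4.80 and 4.26 on the 4 micropylar endosperm arrays at 1 h, against 3.55, 3.74, 3.65 and 3.75 in radicle. The groups did not overlap, and the difference was 1.15 ± 0.31 (limma SE, adjusted p = 0.00775), although without the highest endosperm array, replicate 1, it was 0.91 and missed the threshold (adjusted p = 0.0655). At 10 h EXPA2 had 10.03, 9.88, 9.49 and 9.68 in micropylar endosperm and 3.30, 3.55, 3.51 and 3.35 in radicle, where it was dim, a difference of at least 6.34 ± 0.31 or 81.2-fold (adjusted p = 3.57e-31). Its level in micropylar endosperm stayed between 9.61 ± 0.79 and 9.78 ± 0.60 at 7 h with ruptured testa, 10 h and both 16 h stages. EXPA8 (AT2G40610) was higher than in radicle by 2.63 ± 0.24 at 10 h (adjusted p = 1.9e-15) and by 0.82 ± 0.24 at 16 h with intact endosperm (adjusted p = 0.00632). EXPA9 (AT5G02260) was dim in both tissues at 1 h and higher in micropylar endosperm by at least 3.21 ± 0.27 at 10 h (adjusted p = 2.59e-17). Of 24 measured expansins 3 were members, and at 10 h 8 were higher in micropylar endosperm and 3 lower. Over all loci the 10 h shares, against which this and the list counts below stand, were 12.4% higher and 14.3% lower. The lists were made with earlier results of these data known, so these counts are no test of enrichment either.

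XTH33 (AT1G10550), one of the enzymes that cut and rejoin xyloglucan chains in the wall, was dim in both tissues at 1 h. At 10 h it had 10.56, 10.92, 10.89 and 11.13 in micropylar endosperm, against 4.39, 4.59, 4.78 and 5.31 in radicle. No array of one tissue came near the other, and the difference was 6.11 ± 0.30 or 68.9-fold (adjusted p = 7.48e-31). The difference was down to 2.48 ± 0.30 (adjusted p = 5.73e-11) at 16 h with ruptured endosperm, with 8.36 ± 0.46 in micropylar endosperm and 5.88 ± 0.64 in radicle. XTH19 (AT4G30290), of the same family, differed by at least 3.62 ± 0.34 at 10 h (adjusted p = 1.9e-15). Of 24 measured xyloglucan enzymes 2 were members, while 14 were higher in micropylar endosperm and 3 lower at 10 h. BGAL8 (AT2G28470), a beta-galactosidase, was higher by at least 1.87 ± 0.15 at 10 h and by 0.34 ± 0.15 at 16 h with intact endosperm, where it did not pass.

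PRX71 (AT5G64120), a secreted peroxidase of the class that cross-links or loosens walls, switched late. At 5 h it had 3.73, 3.89, 3.45 and 3.38 in micropylar endosperm, against 3.10, 3.31, 3.16 and 3.26 in radicle, and the difference of 0.40 ± 0.31 did not pass. At 7 h with ruptured testa the endosperm arrays had 8.44, 7.74, 8.13 and 9.79, while radicle arrays stayed at 3.10 to 3.29. At 16 h with ruptured endosperm they had 11.51, 11.56, 11.41 and 12.06, against 3.91, 3.90, 3.69 and 3.38 in radicle, a difference of 7.91 ± 0.31 or 241-fold (adjusted p = 6.76e-39). It was the widest difference of any member at that stage. Among 11 measured peroxidases of its class it was the 1 member, with 4 higher and 1 lower in micropylar endosperm at 10 h.

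GASA6 (AT1G74670), a small secreted peptide induced by gibberellin, crossed over. At 7 h with ruptured testa it had 8.66, 8.50, 8.79 and 8.38 in micropylar endosperm, against 4.18, 3.96, 4.11 and 3.85 in radicle, a difference of 4.56 ± 0.32 (adjusted p = 3.08e-21). At 16 h with ruptured endosperm it had 5.06, 6.13, 5.33 and 4.98 in micropylar endosperm and 6.74, 6.60, 7.66 and 7.42 in radicle. The groups did not overlap in either case, and the later difference ran the other way, at -1.73 ± 0.32 (adjusted p = 4.9e-06). At 16 h with intact endosperm the difference was -0.87 ± 0.32 (adjusted p = 0.0326) with overlapping arrays. That call was lost without replicate 1 or 2 of micropylar endosperm or replicate 1, 3 or 4 of radicle, with adjusted p from 0.0574 to 0.335, and with the arrays of that comparison alone (adjusted p = 0.269). SBT1.8 (AT2G05920), a subtilisin-like protease, was higher in micropylar endosperm by 3.07 ± 0.27 at 7 h with ruptured testa (adjusted p = 3.48e-16) and differed by 0.05 ± 0.27 at 16 h with ruptured endosperm.

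EPR1 (AT2G27380), an extensin-like protein of the endosperm wall, took the opposite course and was highest at the start. At 1 h it had 9.48, 9.38, 9.35 and 9.47 in micropylar endosperm, against 4.70, 4.65, 4.16 and 4.78 in radicle. These arrays lay far apart, and the difference was 4.85 ± 0.22 or 28.8-fold (adjusted p = 2.02e-32), the widest of any member at 1 h. The difference was 2.65 ± 0.22 at 5 h, 2.04 ± 0.22 at 7 h with ruptured testa, 1.49 ± 0.22 at 10 h and 1.17 ± 0.22 at 16 h with intact endosperm. It was still 0.69 ± 0.22 (adjusted p = 0.00976) once the endosperm had ruptured, and that call was lost without radicle replicate 2 (adjusted p = 0.137) or 4 (adjusted p = 0.0546) and with the arrays of that comparison alone (adjusted p = 0.0796). AAD3 (AT5G16230), a fatty acid desaturase found in Arabidopsis endosperm, had its widest difference late. At 16 h with ruptured endosperm it had 6.61, 6.83, 5.56 and 6.63 in micropylar endosperm and 3.28, 3.28, 3.15 and 3.35 in radicle. That difference was at least 3.14 ± 0.21 (adjusted p = 8.38e-24), against at least 0.97 ± 0.21 at 1 h (adjusted p = 0.000468). In between it was 1.58 ± 0.21 at 5 h, at least 0.74 ± 0.21 at 7 h with ruptured testa, at least 1.33 ± 0.21 at 10 h and at least 2.27 ± 0.21 at 16 h with intact endosperm. In non-micropylar endosperm AAD3 went from 5.74 ± 0.47 at 3 h to 3.63 ± 0.17 at 13 h, stages that carry no test.

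**Figure D3:**
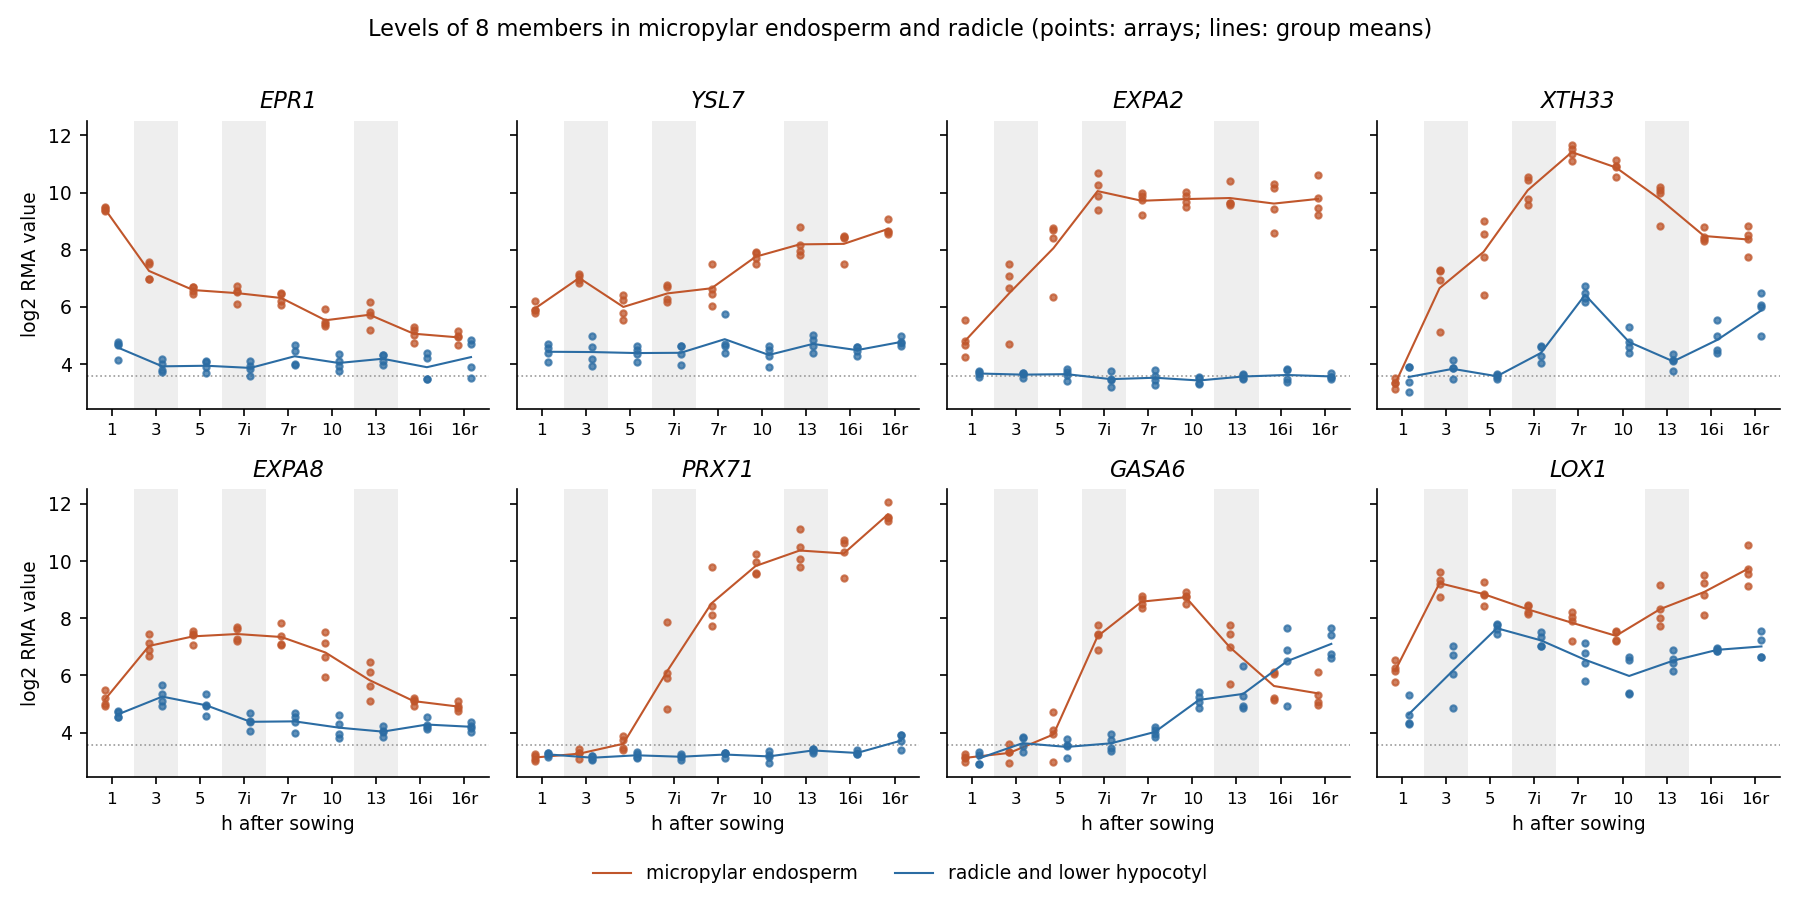
Log2 levels of 8 members on each array (points) with group means (lines) in micropylar endosperm and radicle over time; i and r stand for intact and ruptured testa at 7 h and endosperm at 16 h, grey bands for stages that chose the members, the dotted line for the level of 3.59 below which a mean is called dim. EPR1 falls in micropylar endosperm to 4.94 at 16 h with ruptured endosperm, PRX71 climbs to 11.63, and the GASA6 lines cross between 13 h and 16 h.

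Transporters were members from several lists. YSL7 (AT1G65730), of a family that moves metals bound to nicotianamine, had 5.90, 5.90, 6.22 and 5.78 in micropylar endosperm at 1 h, against 4.70, 4.39, 4.07 and 4.56 in radicle. The arrays did not overlap, and the difference was 1.52 ± 0.23 (adjusted p = 6.32e-07). At 10 h the levels were 7.93, 7.51, 7.87 and 7.70 in micropylar endosperm and 3.89, 4.63, 4.48 and 4.27 in radicle, a difference of 3.43 ± 0.23 or 10.8-fold (adjusted p = 5.88e-23). PHO1;H10 (AT1G69480), related to a phosphate exporter, was higher by 2.53 ± 0.21 at 5 h (adjusted p = 4.3e-17) and by 0.20 ± 0.21 at 16 h with ruptured endosperm, where it did not pass. These were 2 of 57 measured ion and metal transporters, 15 of which were higher and 5 lower in micropylar endosperm at 10 h. NIP1;2 (AT4G18910), an aquaporin-like channel protein, was higher by at least 1.94 ± 0.23 at 1 h (adjusted p = 7.91e-10), and at 7 h with ruptured testa its 0.52 ± 0.23 did not pass. Of 24 measured aquaporins it was the 1 member, with 4 higher and 4 lower at 10 h.

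The vacuolar transporters ABCC1 (AT1G30400), ABCC2 (AT2G34660) and ABCC5 (AT1G04120), which carry conjugates or, for ABCC5, phytate into the vacuole, were 3 of 9 measured genes of their list. At 5 h they were higher in micropylar endosperm by 1.35 ± 0.20, 1.43 ± 0.22 and 2.19 ± 0.21. At 16 h with ruptured endosperm ABCC1 and ABCC2 were higher by 1.26 ± 0.20 and at least 1.48 ± 0.22, while ABCC5 differed by -0.06 ± 0.21 and did not pass. PXA1 (AT4G39850), which imports fatty acids into the peroxisome for oil breakdown, was higher by 1.65 ± 0.29 at 10 h. Of 21 measured genes of storage oil breakdown it was the 1 member, and 11 were higher and 0 lower in micropylar endosperm at 10 h. PEN3 (AT1G59870), a pump of the plasma membrane with a part in defence, differed by 0.31 ± 0.28 at 1 h and by 3.52 ± 0.28 at 10 h (adjusted p = 9.01e-19). AIT1 (AT1G69850), an importer of abscisic acid and nitrate, differed by -0.10 ± 0.22 at 1 h, by 1.89 ± 0.22 at 10 h and by 2.78 ± 0.22 at 16 h with ruptured endosperm (adjusted p = 7.67e-20).

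Regulators of transcription among the members were spread over many families, 1 to a list. MYB65 (AT3G11440), a relative of the gibberellin-response factor GAMYB, was steady. At 10 h it had 5.80, 5.70, 5.45 and 5.78 in micropylar endosperm, against 3.93, 3.26, 3.60 and 3.51 in radicle, where its mean was dim. The MYB65 difference was between 1.55 ± 0.22 and 2.15 ± 0.22 at the 6 stages, the 10 h value being a lower bound. VNI2 (AT5G13180), a NAC repressor, was dim in both tissues at 1 h and higher in micropylar endosperm by at least 3.56 ± 0.24 at 10 h. IAA26 (AT3G16500), an auxin-response repressor, differed by 0.44 ± 0.25 at 5 h without passing and by 4.26 ± 0.25 at 16 h with ruptured endosperm (at least, adjusted p = 4.75e-27). WRKY6 (AT1G62300), RAP2.2 (AT3G14230, an ethylene-response factor of the low-oxygen group) and HAT22 (AT4G37790, a homeodomain factor) were higher at 10 h by at least 1.47 ± 0.16, at least 1.96 ± 0.25 and 1.86 ± 0.20. MYB16 (AT5G15310), known for cuticle formation, was higher by 1.55 ± 0.25 at 10 h and at -0.45 ± 0.25 at 16 h with ruptured endosperm, where it did not pass.

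Among signalling and metabolic members, the brassinosteroid receptor BRI1 (AT4G39400) was higher in micropylar endosperm by 2.07 ± 0.23 at 7 h with ruptured testa and the ethylene receptor EIN4 (AT3G04580) by 0.96 ± 0.23 at 10 h. CIPK23 (AT1G30270), a kinase that acts on potassium and nitrate uptake, was higher by 3.08 ± 0.27 at 16 h with ruptured endosperm, with 9.11 in micropylar endosperm and 6.03 in radicle. LOX1 (AT1G55020), a lipoxygenase, was higher by 1.40 ± 0.35 at 10 h and by 2.72 ± 0.35 at 16 h with ruptured endosperm (adjusted p = 2.13e-10). REF1 (AT3G24503), an aldehyde dehydrogenase that makes ferulate and sinapate, was higher by 2.74 ± 0.23 at 10 h. Of 21 measured phenylpropanoid genes it was the 1 member, with 13 higher and 0 lower at 10 h.

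**Figure D4:**
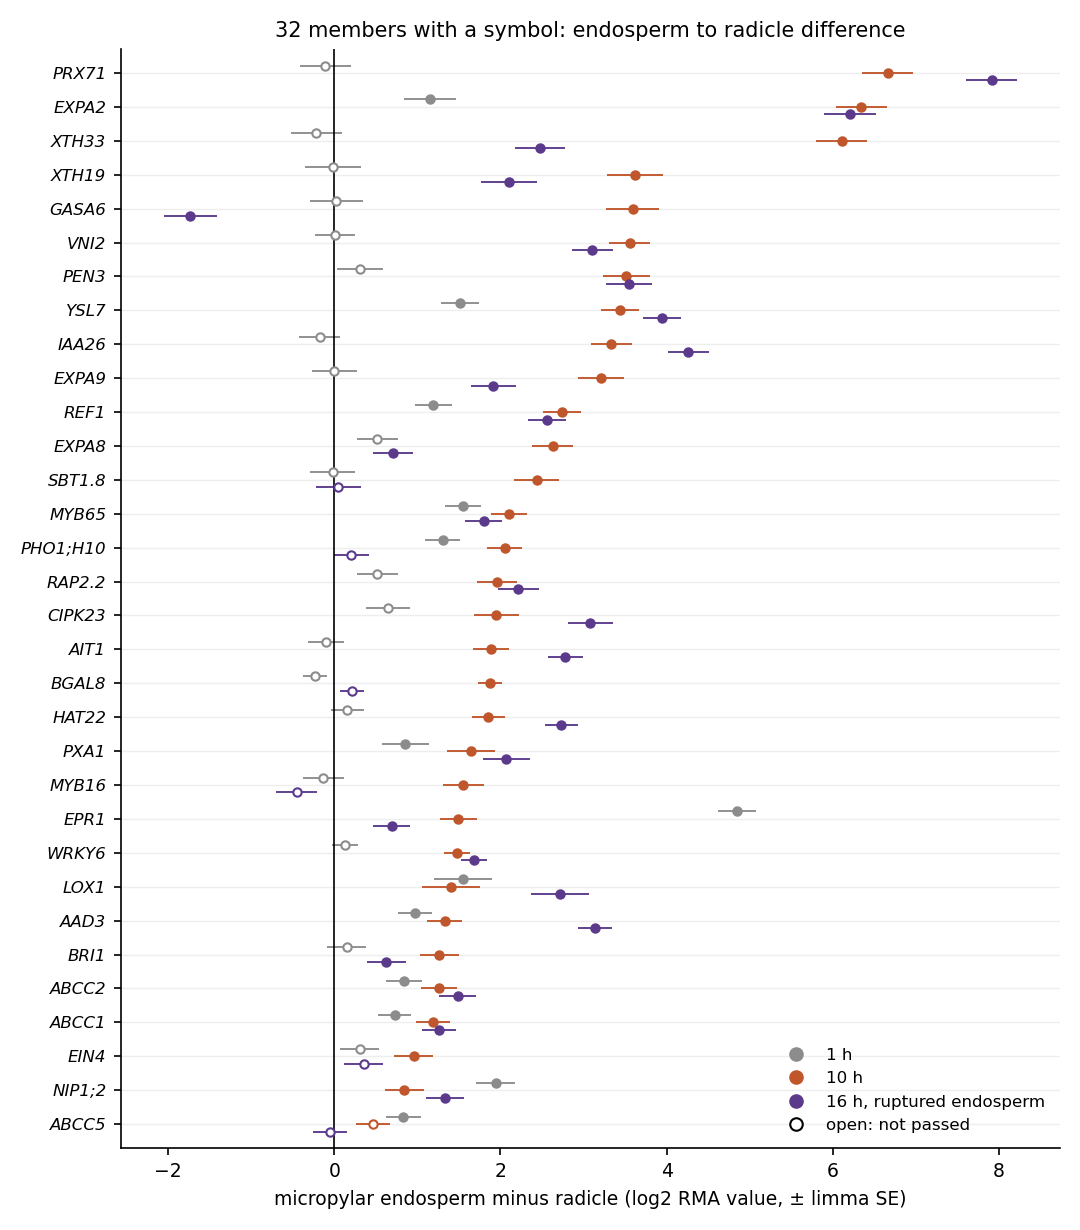
Micropylar endosperm minus radicle (log2, with the limma SE) for the 32 members with a symbol at 1 h, 10 h and 16 h with ruptured endosperm, in the order of the 10 h value; filled points passed at adjusted p under 0.05 and open points did not. PRX71 and EXPA2 stand at 6.66 and 6.34 at 10 h, both lower bounds because radicle was dim, XTH33 stands at 6.11, EPR1 has the widest 1 h difference of those drawn with 4.85, and GASA6 alone passes below 0.

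Within micropylar endosperm, successive unused stages were compared. These comparisons share groups with each other and with those above. The members were chosen by their levels at 3, 7 and 13 h, so the choice itself favours a rise from 1 h. At 5 h against 1 h 103 members were higher (14.8% of all loci) and 5 lower (18.5% of all loci), with a median change of 1.19 against -0.06 over all loci. XTH33 rose by at least 4.59 ± 0.30, EXPA2 by 3.24 ± 0.31, VNI2 by at least 3.08 ± 0.24 and BRI1 by 3.08 ± 0.23, and EPR1 fell by 2.83 on that scale (SE 0.22). At 7 h with ruptured testa against 5 h 52 members were higher (10.6% of all loci) and 32 lower (11.2%), with PRX71 up by 4.91 ± 0.31, GASA6 by 4.64 ± 0.32 and XTH33 by 3.49 ± 0.30. The largest fall among members with a symbol was that of AAD3, by 1.12 (SE 0.21).

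At 10 h against 7 h with ruptured testa 21 members were higher (2.12% of all loci) and 7 lower (1.05%), and without micropylar replicate 2 at 7 h the higher count was 13. It was 11 with the arrays of this comparison alone, and with array weights 39 were higher and 17 lower. Shares of all loci under such other settings are not given, here or below. IAA26 rose by 1.41 ± 0.25, PRX71 by 1.31 ± 0.31 (adjusted p = 0.00402) and YSL7 by 1.10 ± 0.23. The PRX71 call was lost without that replicate (adjusted p = 0.0693), and with the arrays of this comparison alone the calls of IAA26, PRX71 and YSL7 were all lost (adjusted p = 0.11, 0.0997 and 0.0572). The balance turned at 16 h with intact endosperm against 10 h, with 9 members higher (3.09% of all loci) and 35 lower (3.25%). The median change was -0.30, against 0.02 over all loci. Since the choice used levels at 3, 7 and 13 h, it also favours a fall at 16 h. The shares over all loci make no allowance for that. Without replicate 2 or 3 of the 16 h group the higher count was 5, and with the arrays of this comparison alone it was 3. GASA6 fell by 3.10 (SE 0.32), XTH33 by 2.40 (SE 0.30), SBT1.8 by 1.97 (SE 0.27), XTH19 by 1.92 (SE 0.34), and PHO1;H10 by 1.75 (SE 0.21), while LOX1 rose by 1.53 ± 0.35. EXPA8 also fell, to 0.308 of its 10 h level (adjusted p = 1.73e-07). Ruptured against intact endosperm at 16 h gave 18 higher members (3.34% of all loci) and 3 lower (0.964%), and without replicate 4 of the intact group the higher count was 10. With the arrays of this comparison alone 4 were higher and 1 lower. PRX71 was higher by 1.36 ± 0.31 (adjusted p = 0.00139), a call lost with the arrays of this comparison alone (adjusted p = 0.113). Replicate 4 of the intact group had a member median of 5.46, against 6.02 to 6.19 on the other 3 arrays, and its part in the results of that group was not tested beyond leaving it out.

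By highest mean over the 6 unused stages, 6 members peaked at 1 h in micropylar endosperm (34.9% of all loci), 36 at 5 h (16.3%), 23 at 7 h with ruptured testa (9.68%), 21 at 10 h (10.3%), 12 at 16 h with intact (11.7%) and 44 at 16 h with ruptured endosperm (17.2%). A choice by levels after 1 h disfavours peaks at 1 h.

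Over the whole span, 16 h with intact endosperm against 1 h, 101 members were higher in micropylar endosperm (20.4% of all loci) and 13 lower (23.5%), with a median change of 1.31. In radicle the same stages gave 34 higher (18.5% of all loci) and 15 lower (23.3%), with a median of 0.06. The difference between the changes of the 2 tissues was itself tested. It was positive for 75 members (7.98% of all loci) and negative for 6 (8.18%), with a median of 0.93 against 0.01 over all loci. The choice used stages after 1 h and so favours positive values here. Shares over all loci make no allowance for that. The positive values included PRX71 (7.09 ± 0.43), EXPA2 (4.85 ± 0.44) and IAA26 (4.37 ± 0.35), and for PRX71 and IAA26 both 1 h means were dim. The lowest value was that of EPR1 at -3.68 ± 0.32 (adjusted p = 3.48e-16). EPR1 fell by 4.36 in micropylar endosperm (SE 0.22).

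In dry seed the median member level was 4.01 in whole seed, 3.98 in the radicle end and 3.98 in the cotyledon end, against medians of 4.12, 4.13 and 4.14 over all loci. Of the 142 members 47 or 48 were dim in each, while 22.8% to 23.1% of all loci were. Between the dry radicle end and the dry cotyledon end 5 members were higher (4.05% of all loci) and 2 lower (5.59%). One of the 5 was LOX1, with 4.20, 4.95, 5.04 and 5.96 on the dry radicle end arrays, against 3.52, 3.58 and 3.39 at the dry cotyledon end. The arrays did not overlap, and the difference was at least 1.54 ± 0.38 (adjusted p = 0.00253). The higher count was 2 without replicate 2 of the dry radicle end or replicate 4 of the dry cotyledon end, and 3 without replicate 3 or 4 of the radicle end or replicate 1 of the cotyledon end. The lower count was 0 without replicate 2, 3 or 4 of the radicle end or replicate 3 of the cotyledon end, and 1 without replicate 1 or 4 of the cotyledon end. With array weights 3 were higher and 0 lower, and with the arrays of this comparison alone or with a replicate block 1 was lower. EPR1 was well above the dim level in dry seed, at 6.32 ± 0.22 in whole seed, 6.76 ± 0.23 in the radicle end and 6.36 ± 0.43 in the cotyledon end (n = 3). AT2G43590 was higher still, at 8.54 ± 0.26, 8.34 ± 0.24 and 8.11 ± 0.09 in the same 3 groups.

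The dry radicle end holds micropylar endosperm and radicle together, so each tissue at 1 h was set against it. Members were chosen for endosperm levels above radicle levels. That choice favours micropylar endosperm above this mix and radicle below it, and shares over all loci make no allowance for that. In micropylar endosperm 34 members were higher (4.27% of all loci) and 0 lower (3.91%). In radicle 0 were higher (1.51%) and 7 lower (1.42%). At an unadjusted p under 0.05 limma gave 53 higher (10.1% of all loci) and 0 lower members (11.7%) in micropylar endosperm, and 3 higher (7.87%) and 15 lower (7.35%) in radicle. The radicle's lower count was 4 with the arrays of that comparison alone and 4 with array weights. EPR1 was higher in micropylar endosperm at 1 h than in the dry end by 2.66 ± 0.22 (adjusted p = 5.55e-16) and lower in radicle by 2.19, at -2.19 ± 0.22 (adjusted p = 9.46e-12). AT2G43590 was at 1.59 ± 0.25 and -3.04 ± 0.25 in the same comparisons. MYB65 at 1.38 ± 0.22, NIP1;2 at 1.31 ± 0.23, PHO1;H10 at 1.21 ± 0.21 and YSL7, 2.83-fold up, were also higher in micropylar endosperm. In radicle these 4 log2 differences lay between -0.64 and -0.02 and did not pass. A dry end and a tissue cut from it differ in makeup as well as in time, and the design cannot tell these apart.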

How the data were processed

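RNA of dissected cress seed tissues was measured on expression arrays, in 27 groups taken from the sample labels. The deposited values are log2 expression levels that the authors made with RMA in affy (per the submitters' processing notes), and versions are not given in the sources used here. RMA equalises arrays, so only relative levels can be compared, and the number of arrays limits the precision. From these values 1 linear model over all arrays was fitted per locus with limma 3.58.1 in R 4.3.3, with group as the 1 factor and a spread shared by all groups (80 residual degrees of freedom), and p-values were adjusted over all 13895 loci by Benjamini-Hochberg, with a threshold of 0.05. The model was tested on simulated data. Stages that chose the members carry no test. Genes named are the members held by the gene lists, plus the codes with the 2 largest and 2 smallest excesses among the others. The members and lists were chosen with earlier results of these data known. The settings varied were robust moderation with an intensity trend, leaving out dim probe sets, the arrays of a comparison alone, array weights, quantile normalization, centring, a replicate block, other limits and group medians for the choice, and leaving out each array. No sequence was analysed here.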

Additional observations from a re-analysis of the deposited data

Results flagged for a closer look

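Single arrays stood apart from the other arrays of their group in 6 of 166 groups tested (3.61%), where chance gives about 1 in 20. The member median of radicle at 5 h was 4.10 on replicate 3, against 4.15 to 4.16 on the others. EXPA2 was at 6.35 on replicate 1 of micropylar endosperm at 5 h, against 8.43 to 8.77. YSL7 was at 7.48 on replicate 4 of micropylar endosperm at 16 h with intact endosperm, against 8.41 to 8.49. In the dry radicle end EPR1 was at 7.10 on replicate 4, against 6.63 to 6.68, and EXPA8 at 4.98 on replicate 1, against 4.45 to 4.50. PRX71 was at 3.10 on replicate 1 of radicle at 7 h with ruptured testa, against 3.27 to 3.29.

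The change between 1 h and 16 h with intact endosperm differed between micropylar endosperm and radicle for members in both directions, 75 positive and 6 negative (limma, adjusted p under 0.05). The choice of members by stages after 1 h favours positive values. Endosperm minus radicle change was 7.09 for PRX71, 4.85 for EXPA2, 4.37 for IAA26, 3.85 for XTH33, 2.92 for AIT1, 2.64 for VNI2, 2.53 for PEN3 and 2.20 for YSL7. It was 2.00 for EXPA9, 1.81 for HAT22, 1.75 for XTH19, 1.66 for CIPK23, 1.52 for WRKY6, 1.41 for RAP2.2, 1.29 for AAD3, 1.17 for REF1 and 0.58 for BGAL8. It was -0.85 for PHO1;H10 and -3.68 for EPR1. Both 1 h means were dim for PRX71, IAA26, XTH33, VNI2, EXPA9, XTH19, WRKY6, RAP2.2 and BGAL8. Their changes are therefore measured against dim levels in both tissues. The calls of BGAL8 and PHO1;H10 were lost without several single arrays and with the arrays of the comparison alone (adjusted p = 0.0588 for BGAL8 and 0.0692 for PHO1;H10).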

How the results depend on the processing

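Of 289 results of members with a symbol past the threshold, 248 kept their call in every setting, 25 were lost in at least 1 of 8 settings, 35 without 1 array, and 0 reversed. With the arrays of a comparison alone, which leaves fewer arrays to estimate the spread, members lower at 16 h with intact endosperm numbered 0, those higher at 10 h against 7 h 11, those higher at 16 h intact against 10 h 3, those higher and lower at 16 h ruptured against intact 4 and 1, those lower between the dry ends 1, and those lower in radicle at 1 h against the dry end 4. With array weights 39 were higher and 17 lower at 10 h against 7 h, 3 higher and 0 lower between the dry ends, and 4 lower in radicle at 1 h against the dry end. After quantile normalization 1 member was lower in micropylar endosperm than in radicle at 1 h and 1 between the dry ends. The cause was not tested for array weights or quantile normalization. Shares of all loci under these settings are not given, so the shifts in count are not shown to be particular to the members. A limit of 0.5 chose 549 members and one of 1.5 chose 45. Leaving out dim probe sets removed 748, of which 0 were members, and centring shifted the median of all loci by at most 0.0377.

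The replicate numbers were not taken to pair the samples, since no comparison had every pair of same-numbered samples correlated above 0.1 (pair correlations from -0.236 to 0.385). Pairing is not excluded by this. For micropylar endosperm at 1 h and the dry radicle end, 4 arrays correlated best with their own number, at 0.036 to 0.066. In the other comparisons this held for 0 to 2 arrays. With the number as a block, 46 members were higher at 1 h, 132 at 10 h and 1 lower between the dry ends, the 1 count that moved by over 1.5 times.

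Without 1 array at a time, members higher in micropylar endosperm than in radicle ran from 37 to 46 at 1 h (lower, 0 to 1), 121 to 127 at 5 h, 129 to 134 at 7 h, 129 to 133 at 10 h, 111 to 120 at 16 h intact (lower, 0 to 1) and 113 to 118 at 16 h ruptured (lower, 1 to 2). The median at 16 h intact ran from 1.49 to 1.76, with 1.76 found without endosperm replicate 4. Higher counts ran from 13 to 28 at 10 h against 7 h, 5 to 12 at 16 h intact against 10 h, 10 to 22 at 16 h ruptured against intact and 2 to 6 between the dry ends (lower, 0 to 2).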

Other observations

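The members were spread over the 5 chromosomes that the Arabidopsis locus codes name, with 25.4%, 13.4%, 19.7%, 10.6% and 31.0% on chromosomes 1 to 5, against 26.0%, 16.0%, 20.1%, 14.7% and 23.2% of all loci. These are places in Arabidopsis, not in cress, and the shares carry no test. By the mirrored choice, with both embryo parts above both endosperm regions by at least 1, 69 loci were found.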
